A study of Mus musculus with 10 samples.

Results

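The genes described here encode 8 of the enzymes that write or remove the histone marks of enhancers and promoters: the H3K4 methyltransferases Kmt2a, Kmt2b, Kmt2c and Kmt2d, the acetyltransferases Ep300 and Crebbp, the H3K4 demethylase Kdm5b and the H3K27 demethylase Kdm6b. They were chosen by gene symbol, and all 8 were found among the 15686 genes of the deposited stage matrix and among the 55487 genes of the count tables. Nuclear RNA was sequenced from HM-1 mouse ES cells and from 4 populations that these cells form in a serum differentiation towards blood, with 2 libraries per population and 10 in all. ES cells were kept undifferentiated with LIF. HB, the hemangioblast, is the FLK1+ fraction of embryoid bodies grown for 3 days. HE1, HE2 and HP were sorted after a blast culture of those FLK1+ cells: HE1, the first hemogenic endothelium, as KIT+ TIE2+ CD41-, HE2 as KIT+ TIE2+ CD41+, and HP, the hematopoietic progenitors, as KIT+ TIE2- CD41+. All 5 populations come from 1 ES cell line, and HE1, HE2 and HP are all grown from FLK1+ HB cells. The labels do not tell which libraries share a culture.

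Enhancers that are open or poised carry monomethylated H3K4, which is placed mostly by KMT2C and KMT2D, while KMT2A and KMT2B work with the same core subunits mostly at promoters and at CpG islands, which they bind through a CXXC domain that recognises unmethylated CpG. EP300 and its close relative CREBBP acetylate H3K27 and other histone lysines at active enhancers. KDM5B takes methyl groups off H3K4, and KDM6B takes them off H3K27, the mark of Polycomb repression, so that these enzymes act in opposite directions on whether an element is held silent.

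Library totals were between 24920434 and 58782055 counts on annotated genes, and each member had at least 3473 counts in every library. Levels are given as CPM (counts scaled to a common library size) after TMM scaling of library sizes. Changes were tested with edgeR's quasi-likelihood test over 22596 genes in 1 fit to all 10 libraries, and a gene is said to have passed at a Benjamini-Hochberg adjusted p under 0.05. The study's text calls the replicates of this RNA-seq biologically independent, while the labels name no culture or batch. The edgeR p-values rest on the spread between the 2 libraries of a stage, pooled over all stages of the fit. Libraries of stages outside a comparison therefore also enter its p-value. The spread was unlike between stages, from 3.17 times counting error in ES to 68.5 times in HE2 (chi-square per degree of freedom). Markers and gate genes are given as CPM of the library totals, without TMM scaling. Of the 4 gate genes, Kdr, Tek and Itga2b followed the labels: Kdr, which encodes FLK1, was at 2.33 and 2.58 CPM in ES and at 996 and 1265 CPM in HB, Tek, which encodes TIE2, was at 333 CPM or more in HE1 and at 68.2 CPM or less in HP, and Itga2b, which encodes CD41, was at 217 and 144 CPM in HE1 and at 500 and 449 CPM in HE2. Kit, at 228 CPM or more in HE2 and HP, did not set the KIT+ HE1 apart, with 140 and 82.5 CPM there against 157 and 165 in ES and 76.3 and 68.2 in HB, which were not sorted on KIT. The 2 libraries of HE1 were the least alike of any stage (Pearson r of log2 values 0.983). In HE1 replicate 2 the summed level of 6 smooth muscle and mesenchyme markers was 1879 CPM against 804.5 in replicate 1, and that of 4 cardiac markers 104 against 23.9. The 8 ES cell markers summed to 207 CPM in HE1 replicate 2 against 167 in replicate 1. Without Tbx3, which was higher in replicate 1 (121 against 76.1 CPM), the other 7 summed to 130 against 45.2. Most of that 45.2 was Klf4, which was also higher in replicate 1 than in replicate 2. Each remaining ES cell marker was at 2.69 CPM or less in replicate 1 and at 9.78 CPM or more in replicate 2. In bulk RNA, fewer cells that use a gene and less RNA per cell cannot be told apart.

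The promoters of 6 of the 8 genes were matched in the RefSeq table of the GRCm38.p6 build, where Kmt2b and Kdm6b had no entry. The stretches from 150 to 31 bases upstream of the annotated start (120 bases, on the strand of the gene, 5′ to 3′) are shown for 4 of them, because KMT2A and KMT2B bind CpG-rich sequence and these promoters differ in how much of it they carry. The windows of Ep300 and Crebbp in that table lie within the annotated gene and are not shown. Capitals mark the dinucleotide CG, which reads the same on both strands. The stretches lie at chr9:44881320-44881439 (minus strand) for Kmt2a, chr5:25498814-25498933 (minus strand) for Kmt2c, chr15:98871236-98871355 (minus strand) for Kmt2d and chr1:134560028-134560147 (plus strand) for Kdm5b.
Kmt2a: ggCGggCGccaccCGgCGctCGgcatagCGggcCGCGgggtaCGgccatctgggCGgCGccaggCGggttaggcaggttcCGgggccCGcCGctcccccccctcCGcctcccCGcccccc
Kmt2c: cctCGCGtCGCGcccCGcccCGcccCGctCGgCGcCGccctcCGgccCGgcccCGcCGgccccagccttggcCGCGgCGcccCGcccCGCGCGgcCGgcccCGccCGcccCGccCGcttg
Kmt2d: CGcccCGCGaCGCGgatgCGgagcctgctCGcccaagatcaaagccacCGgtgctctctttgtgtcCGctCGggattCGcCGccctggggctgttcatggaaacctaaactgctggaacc
Kdm5b: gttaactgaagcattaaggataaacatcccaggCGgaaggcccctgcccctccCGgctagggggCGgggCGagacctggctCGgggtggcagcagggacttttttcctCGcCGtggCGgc
The Kmt2c stretch held 26 CG, and 0.143% of the 32851 promoter windows of this length in the table held as many. Kmt2a had 17 (4.93% of windows held as many), Kmt2d had 12 (14.7%) and Kdm5b had 8 (27.3%), against a median of 3 over all windows. The windows of Ep300 and Crebbp held 11 and 23. All 4 genes shown, from the richest (Kmt2c) to the poorest (Kdm5b), had their highest level in ES.

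Across the 5 stages, 6 of the 8 genes passed, against 66.7% of all tested genes and 69.3% of the 2541 genes with a mean of 100 CPM or more, a share near that background. Kmt2d (edgeR adjusted p = 0.113) and Crebbp (edgeR adjusted p = 0.819) did not pass. What differed between the members was where and which way they changed, as the plot of the level in each library by stage shows. Kmt2b, Kmt2c, Ep300 and Kdm5b were lower in HB than in ES, with Kmt2a at the threshold, Kdm6b was 2.97-fold higher in HB than in ES, and after HE1 none of the 8 passed at a step. In 6 of the 8 both ES libraries were above the other 8 libraries, which held for 26.3% of all tested genes.

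**Figure D1:**
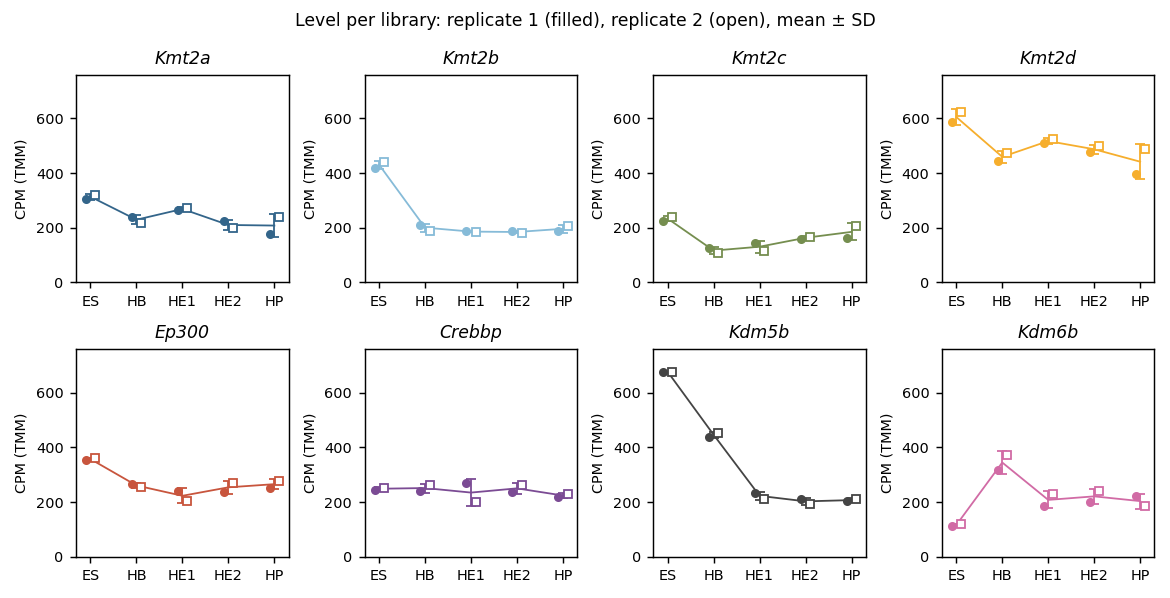
Level of each gene in CPM after TMM scaling (y axis, from 0) in the 5 stages (x axis). Filled circles are replicate 1, open squares replicate 2, the line joins the stage means and the bars are the SD of 2 libraries. In all genes other than Crebbp and Kdm6b both ES libraries lie above all others, Kdm6b is lowest in ES and highest in HB, and Crebbp lies between 201 and 269 CPM throughout.

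From ES to HB, the largest falls among the 4 methyltransferases were those of Kmt2b and Kmt2c. Kmt2b (chromosome 7, 30568858 to 30588726, minus strand), whose product sets H3K4 trimethylation at many developmental promoters in ES cells, was at 420 and 441 CPM in ES, then 211 and 190 (HB), 187 and 185 (HE1), 187 and 182 (HE2) and 187 and 206 (HP). Both ES libraries were far above the other 8, which lay close together. It was 2.15-fold lower in HB than in ES (log2 fold change -1.10, SE 0.14, edgeR adjusted p = 0.000122). The further change from HB to HE1 was -0.11 on the log2 scale (95% interval -0.40 to 0.19). Kmt2b in HP was still 2.19-fold lower than in ES (log2 fold change -1.13, SE 0.14, edgeR adjusted p = 6.2e-05).

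Kmt2c (chromosome 5, 25271798 to 25498783, minus strand), one of the pair of enhancer H3K4 methyltransferases, passed at the step from ES to HB and at no later step between neighbouring stages (edgeR). Its level was 226 and 240 CPM in ES, HB stood at 127 and 106, HE1 at 146 and 115, HE2 at 159 and 167 and HP at 163 and 207. It was lowest in HB and HE1, whose libraries overlapped, and the HE2 and HP libraries lay between those and ES. It fell by 1.00 on the log2 scale from ES to HB (2-fold, SE 0.17, edgeR adjusted p = 0.00109). In HP it was 1.41-fold above HE1 and did not pass (log2 difference 0.50, 95% interval 0.12 to 0.88, edgeR adjusted p = 0.0569), although limma-voom gave an adjusted p of 0.0468 and DESeq2 one of 0.0368. That difference was 0.71 (edgeR adjusted p = 0.0226) without HE1 replicate 1 and 0.34 (edgeR adjusted p = 0.268) without HE1 replicate 2, and it was 0.68 (edgeR adjusted p = 0.0694) without HP replicate 1 and 0.33 (edgeR adjusted p = 0.260) without HP replicate 2. Between HP and ES, Kmt2c differed by -0.34 on the log2 scale (95% interval -0.72 to 0.04) and did not pass.

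Kmt2d (chromosome 15, 98831669 to 98871204, minus strand), the other enhancer methyltransferase, was the more abundant of that pair in all 10 libraries per kb of exons. It was at 585 and 625 CPM in ES, then 443 and 475 (HB), 509 and 524 (HE1), 476 and 498 (HE2) and 396 and 486 (HP). The ES libraries were the highest, the means of the other stages lay between 441 and 517 CPM, and the range of HP overlapped those of HB and HE2. The difference between HB and ES was -0.40 on the log2 scale (95% interval -0.74 to -0.06) and did not pass (edgeR adjusted p = 0.062), whereas limma-voom (adjusted p = 0.0303) and DESeq2 (adjusted p = 0.0224) passed it, as did edgeR without HE1 replicate 2 (adjusted p = 0.0379) and with only the ES and HB libraries in the fit (log2 difference -0.37, adjusted p = 0.00688). In HP it was lower than in ES (log2 fold change -0.45, SE 0.15, edgeR adjusted p = 0.0296), a call lost without HP replicate 1 (log2 difference -0.32, edgeR adjusted p = 0.208), without either ES library (edgeR adjusted p = 0.113 and 0.194), without either HB library (edgeR adjusted p = 0.0516 and 0.0524) and with total counts in place of TMM (log2 difference -0.36, edgeR adjusted p = 0.0773).

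Kmt2a (chromosome 9, 44803355 to 44881296, minus strand), the mammalian Trithorax gene that is required for definitive hematopoiesis and is rearranged in leukaemia, was at 306 and 321 CPM in ES, HB stood at 240 and 218, HE1 at 264 and 273, HE2 at 223 and 197 and HP at 177 and 239. The ES libraries were above all others, and HE1 was above HB and HE2 with no overlap. The fall from ES to HB, 1.37-fold, stood at the threshold (log2 fold change -0.45, SE 0.16, edgeR adjusted p = 0.05), and the call was lost without any 1 of the ES and HB libraries (edgeR adjusted p between 0.134 and 0.252), without HE1 replicate 1 (edgeR adjusted p = 0.0524) and without HE2 replicate 1 or 2 (edgeR adjusted p = 0.0505 and 0.0508). It was also lost under 6 of the 9 other alternatives, 5 of them changes of scaling, gene set or filter (edgeR adjusted p between 0.0578 and 0.150). From ES to HP it fell by 0.59 on the log2 scale (SE 0.17, edgeR adjusted p = 0.0118), and the 2 HP libraries were so unlike that leaving out the first gave -0.39 (edgeR adjusted p = 0.114) and leaving out the second -0.82 (edgeR adjusted p = 0.00655). Without ES replicate 1 or 2 the edgeR adjusted p of that fall was 0.0552 or 0.0816, and with total counts in place of TMM it was 0.0511 (log2 difference -0.50). The HP libraries also differed in the summed levels of 6 erythroid markers (4590 CPM in the first and 2600 in the second), 6 smooth muscle and mesenchyme markers (1147 and 612 CPM) and 6 macrophage and monocyte markers (285 and 166 CPM), whose part in the Kmt2a levels was not tested.

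The acetyltransferases had different courses, with a fall of Ep300 and none that passed for Crebbp, and the ratio of the pair is tested further on. Ep300 (chromosome 15, 81585351 to 81652077, plus strand) was at 353 and 361 CPM in ES, then 266 and 255 (HB), 242 and 204 (HE1), 238 and 270 (HE2) and 253 and 278 (HP). Both ES libraries were higher than the other 8, which overlapped between HB, HE2 and HP. It was 1.37-fold lower in HB than in ES (log2 fold change -0.45, SE 0.15, edgeR adjusted p = 0.0302) and 1.35-fold lower in HP than in ES (log2 fold change -0.43, SE 0.15, edgeR adjusted p = 0.0313). With any 1 of the 4 ES and HB libraries left out, the first of these no longer passed (log2 fold change -0.46 to -0.42, edgeR adjusted p between 0.131 and 0.188), and the second did not pass without any 1 of the ES, HB or HP libraries (edgeR adjusted p between 0.0541 and 0.171). Neither passed without the filter on low counts (edgeR adjusted p = 0.0547 and 0.0687) or with the replicate number added to the fit (edgeR adjusted p = 0.0559 and 0.0564). Ep300 shares 108 bases on its strand with the small gene Gm23880, which had at most 233 counts in a library, and a fragment on both was counted on both.

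Crebbp (chromosome 16, 4081328 to 4213997, minus strand), the paralog of Ep300, was at 245 and 253 CPM in ES, HB stood at 240 and 263, HE1 at 269 and 201, HE2 at 236 and 264 and HP at 217 and 230. The lowest and the highest of the 10 libraries were the 2 of HE1, and the stages overlapped except that both HP libraries were below those of ES, HB and HE2. The log2 difference between HB and ES was 0.01 (95% interval -0.35 to 0.37), and between HP and ES -0.15 (95% interval -0.51 to 0.21). Within these intervals a change of Crebbp was not detectable with these libraries.

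Kdm5b and Kdm6b, the demethylases, had the widest ranges of stage means (3.34-fold and 2.97-fold between the highest and the lowest) and went in opposite directions from ES to HB. Kdm5b (chromosome 1, 134560171 to 134635285, plus strand), an H3K4 demethylase known to be highly used in ES cells, was at 677 and 675 CPM in ES, then 439 and 453 (HB), 233 and 212 (HE1), 212 and 193 (HE2) and 202 and 212 (HP). Its libraries formed 3 levels that did not overlap, ES above HB and HB above the 3 later stages. It fell by 0.60 on the log2 scale from ES to HB (1.52-fold, SE 0.14, edgeR adjusted p = 0.00556) and by 1.00 from HB to HE1 (2-fold, SE 0.14, edgeR adjusted p = 0.00052). The first fall did not pass without ES replicate 1, ES replicate 2 or HB replicate 1 (log2 fold change -0.59 to -0.55, edgeR adjusted p between 0.0576 and 0.0611), and the second passed without HE1 replicate 1 (-1.11) and without HE1 replicate 2 (-0.93). HP had 3.26-fold less than ES (log2 fold change -1.71, SE 0.14, edgeR adjusted p = 5.4e-06). The summed level of 8 ES cell markers was 2766 and 2706 CPM in ES, 559 and 556 in HB and 167 and 207 in HE1. Most of the HB sum was Tbx3, which was higher in HB (392 and 441 CPM) than in ES (152 and 147 CPM) and is also used outside ES cells. The other 7 summed to 2613 and 2559 CPM in ES, 167 and 115 in HB and 45.2 and 130 in HE1. Most of the 45.2 CPM in HE1 replicate 1 was Klf4. Whether undifferentiated cells contribute to the Kdm5b level in HB was not tested.

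Kdm6b (chromosome 11, 69398508 to 69413675, minus strand), also called Jmjd3 and known as a gene that responds to developmental and inflammatory signals, was at 113 and 119 CPM in ES, HB stood at 316 and 373, HE1 at 186 and 230, HE2 at 201 and 241 and HP at 223 and 184. Both HB libraries were above and both ES libraries below all others, and the 3 later stages overlapped. It rose 2.97-fold from ES to HB (log2 fold change 1.57, SE 0.18, edgeR adjusted p = 6.9e-05), fell by 0.73 from HB to HE1 (SE 0.17, edgeR adjusted p = 0.0098), and in HP was 1.75-fold above ES (log2 fold change 0.81, SE 0.17, edgeR adjusted p = 0.00269). The fall to HE1 was -0.64 and did not pass without HB replicate 2 (edgeR adjusted p = 0.0752), and it passed without either HE1 library (-0.63 and -0.89).

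Set out by step, 5 of the 8 members were lower and 1 was higher in HB than in ES, where 22.6% of all tested genes were lower and 17.8% were higher. The 5 lower became 2 without ES replicate 1, ES replicate 2 or HB replicate 1, and 3 without HB replicate 2. The median log2 fold change of the members was -0.45, against 0.00 for all tested genes and 0.03 for the 4887 tested genes with 6 kb or more of exons, a length that every member exceeds. The nuclear RNA Malat1, a sign of how far a library holds nuclear RNA, took 0.954% and 0.980% of the counts in ES against 0.447% and 0.381% in HB. Later libraries ranged from 0.258% (HE2 replicate 2) to 0.993% (HE1 replicate 2), HP standing at 0.389% and 0.614%, and its part in the falls from ES was not tested. In HE1 against HB, 2 were lower and none was higher (14.8% lower and 17.5% higher among all tested genes), and 1 was lower without HB replicate 2. In HE2 against HE1, edgeR passed 0 of 8, where 13.2% of all genes passed. No member had an unadjusted p under 0.05 there (0 of 8, smallest 0.0563), and limma-voom and DESeq2 also passed 0. In HP against HE2, edgeR passed 0 of 8 (background 0% of all genes, with 1783 genes at an unadjusted p under 0.05, none of them a member). Limma-voom passed 66 genes and DESeq2 465 at that step, and 0 of the 8 were among either. In HP against HE1, edgeR passed 0 of 8 (24.9% of all genes), 2 members had an unadjusted p under 0.05, namely Kmt2a and Kmt2c, and limma-voom and DESeq2 each passed 1, Kmt2c. In HP against ES, 5 were lower and 1 was higher (27.5% and 24.1% of all genes), and the 5 became 2 without ES replicate 1, ES replicate 2 or HP replicate 1, and 3 without HB replicate 1 or 2. These comparisons share libraries, and the ES libraries enter both HB against ES and HP against ES.

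**Figure D2:**
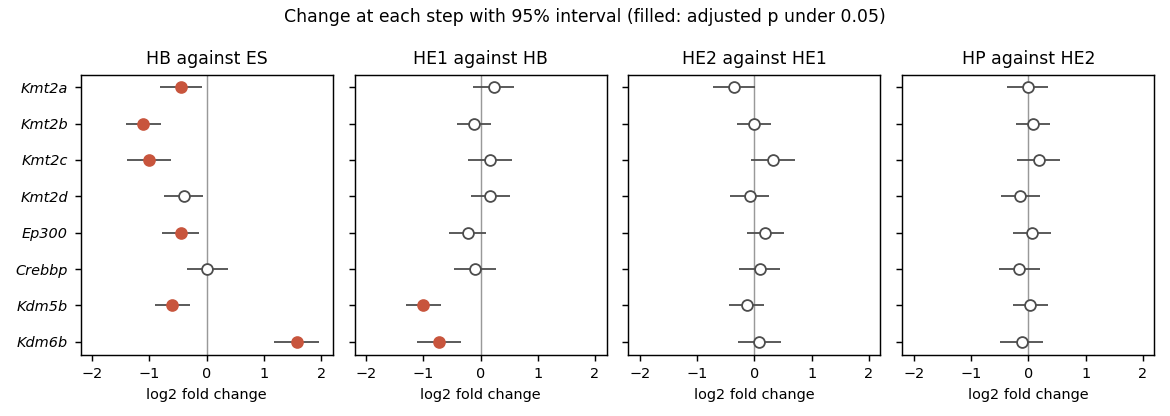
Log2 fold change of each gene (x axis) at the 4 steps between neighbouring stages, with 95% intervals from the edgeR fit. Filled points passed at an adjusted p under 0.05: 6 genes in HB against ES, 2 in HE1 against HB and none at the later steps, where every interval spans 0.

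Per kb of exons, the scale on which genes can be compared, the order of the 8 was not the same at the start and the end. In ES the highest were Kmt2b at 44.8 ± 1.6 and Kdm5b at 40.8 ± 0.07 CPM per kb (SD, n = 2), and the lowest was Kmt2c at 11.5 ± 0.49. In HB, Kdm6b led with 49.5 ± 5.8 CPM per kb, and Kmt2c was again the lowest with 5.74 ± 0.70. In HP the first was Kdm6b at 29.3 ± 3.9, ahead of Kmt2d at 22.1 ± 3.2 and Kmt2b at 20.4 ± 1.4, which differed by less than the spread between libraries. Kdm5b, second in ES, was at 12.5 ± 0.42 in HP, next to Kmt2a at 12.5 ± 2.6. Exon length was taken over all annotated exons of a gene, so a gene with many unused exons is understated.

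The 4 KMT2 genes summed to 105.5 ± 4.1 CPM per kb in ES and to between 63.4 and 67.9 CPM per kb (stage means) in the other stages. Kmt2b made up 42.6% and 42.4% of this sum in the 2 ES libraries and 28.6% and 28.5% in HE1, while Kmt2d went from 28.6% and 28.9% in ES to 37.6% and 38.9% in HE1. Kmt2d had thus the largest share in HE1 and Kmt2b in ES. Kmt2c held 10.9% in each ES library, 9.62% and 8.47% in HB, and 13.8% and 14.5% in HP, the highest of the 5 stages. Within the KDM5 family, Kdm5b held 43.2% and 42.6% of the summed CPM per kb in ES and 19.96% and 19.28% in HP, and Kdm5a, a widely used relative with the same activity, 12.2% and 11.7% in ES and 24.0% and 28.8% in HP. The KDM5 sum itself was lower in HP (63.8 ± 3.7 CPM per kb) than in ES (95.2 ± 0.66). Kdm5a was higher in HB than in ES (log2 fold change 0.67, SE 0.18, edgeR adjusted p = 0.0122), the step at which Kdm5b was lower, and Kdm5c, whose share was 45.2% in ES and 53.9% in HP, did not pass at any step.

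Because a ratio of 2 genes within 1 library does not depend on how libraries are scaled, pairs of paralogs were compared as log2 ratios of counts per kb and tested by an exact permutation of the 10 libraries over the stages (113400 arrangements, smallest possible p 0.00106, one-sided on the between-stage F statistic). All 4 pairs had an adjusted p of 0.0243 over the 4 pairs (exact permutation test). Kmt2a to Kmt2b was at -1.25 and -1.26 in the ES libraries and between -0.30 and -0.24 in HE1 (exact permutation p = 0.0127), that is, Kmt2a counts per kb were 0.42 times those of Kmt2b in ES and 0.83 times in HE1. Kmt2c to Kmt2d was at -1.40 in ES, between -2.18 and -1.83 in HB, between -2.21 and -1.83 in HE1, and at -1.31 and -1.26 in HP (exact permutation p = 0.0243). Kmt2c was thus lowest against Kmt2d in HB and HE1, and in both HP libraries the ratio was above that of ES. Ep300 to Crebbp was at 0.45 and 0.44 in ES, then 0.07 and -0.12 (HB), -0.23 and -0.05 (HE1), -0.07 and -0.04 (HE2) and 0.14 and 0.19 (HP) (exact permutation p = 0.0138). The ES ratio was above every other, and HP was above HB, HE1 and HE2. Kdm6b to Kdm6a, its relative with the same substrate that also belongs to the KMT2C and KMT2D complex, was at 0.22 and 0.23 in ES, then 1.87 and 2.23 (HB), 1.05 and 1.76 (HE1), 1.21 and 1.44 (HE2) and 1.30 and 0.79 (HP) (exact permutation p = 0.0212). Kdm6a itself lay between 95.2 and 120 CPM in the stage means and did not pass at any step.

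With single libraries left out, Kmt2a to Kmt2b passed in all 10 cases (exact permutation, adjusted p up to 0.0466), Ep300 to Crebbp failed without HP replicate 2 (adjusted p = 0.0564), and Kmt2c to Kmt2d failed without either ES, HE2 or HP library (adjusted p between 0.0519 and 0.0709). Kdm6b to Kdm6a failed without either ES library, without HB replicate 2 and without HP replicate 2 (adjusted p between 0.0519 and 0.0646). Fewer libraries also allow fewer arrangements.

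**Figure D3:**
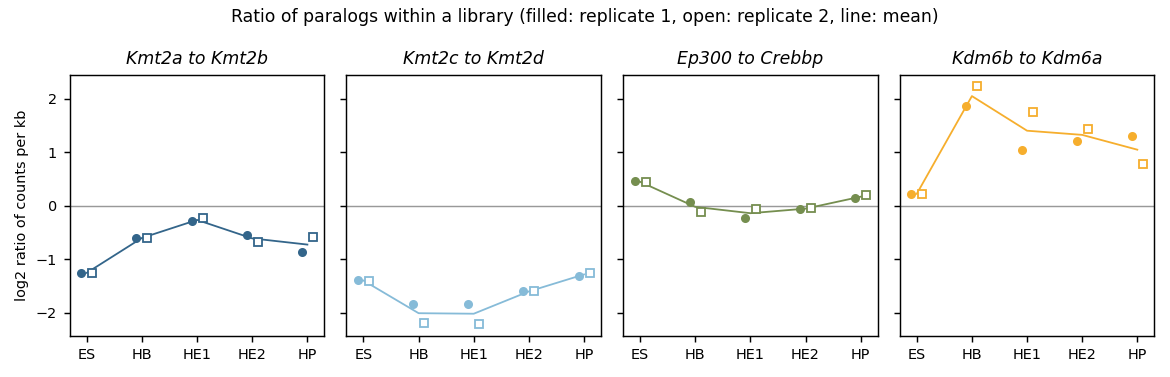
Log2 ratio of counts per kb of exons between 2 paralogs (y axis) in each library of the 5 stages, with filled circles for replicate 1, open squares for replicate 2 and a line through the means. Kmt2a to Kmt2b is lowest in ES, Kmt2c to Kmt2d lowest in HB and HE1, Ep300 to Crebbp highest in ES, and Kdm6b to Kdm6a highest in HB.

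The 111 other genes of the same machinery, set out in 7 lists, were all tested, and 76 of them (68.5%) passed across the 5 stages, close to the 66.7% of all genes. In HB against ES, 27 of the 111 were higher and 27 lower (24.3% each, against 17.8% and 22.6% of all tested genes). In HE1 against HB, 14 were higher and 20 lower (12.6% and 18.0%, against 17.5% and 14.8%). In HE2 against HE1 it was 4 and 2 (3.60% and 1.80%, against 6.12% and 7.11%), and in HP against HE2 none (edgeR, 1783 of all genes at an unadjusted p under 0.05 there). The counts of the single lists at the step to HB are to be read against the same 17.8% and 22.6%, and they rest on 8 to 23 genes a list. Of the 15 COMPASS subunits that KMT2 enzymes work with, 3 were higher and 7 lower in HB against ES, with a median log2 fold change of -0.29. Ash2l and Dpy30, both parts of the core that every KMT2 enzyme needs, fell from 311 ± 4.9 to 159 ± 12 CPM (log2 fold change -0.96, SE 0.15, edgeR adjusted p = 0.00054) and from 94.01 ± 1.8 to 35.5 ± 9.1 CPM (log2 fold change -1.40, SE 0.24, edgeR adjusted p = 0.000947). Hcfc1, a partner of KMT2A, KMT2B and the SETD1 enzymes, fell from 732 ± 26 to 388 ± 24 CPM (log2 fold change -0.92, SE 0.20, edgeR adjusted p = 0.00374), whereas its paralog Hcfc2 rose from 5.32 ± 0.10 CPM in ES to 10.5 ± 0.41 in HB and 27.5 ± 2.4 in HE1.

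The 9 other H3K4 methyltransferases had 4 higher and 2 lower at the step to HB and a median of 0.35. Kmt2e, a family member without clear H3K4 activity, rose from 71.6 ± 2.9 to 138 ± 4.8 CPM, Smyd2 rose from 24.4 ± 1.6 to 40.2 ± 0.36 CPM, and Setd7, which monomethylates H3K4, rose mainly from HB (87.3 ± 0.16 CPM) to HE1 (174 ± 16 CPM). Setd1b fell from 103 ± 6.7 CPM in ES to 54.5 ± 1.0 in HB and rose to 99.1 ± 7.0 in HE1. Of the 8 other demethylases of H3K4 and H3K27, 2 rose and 1 fell from ES to HB. Kdm1b fell from 21.8 ± 0.54 to 13.3 ± 0.26 CPM, Kdm2b fell from 155 ± 2.2 in HB to 91.2 ± 7.1 in HE1, and the Y-linked Uty, a relative of Kdm6a, rose from 2.35 ± 0.09 to 6.40 ± 1.1 CPM.

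Among the 20 other acetyltransferases and their partners, 2 were higher and 6 lower in HB against ES (median -0.11). Kat6b, the MYST-family enzyme MORF, was at 349 and 359 CPM in ES and 40.3 and 37.8 in HB (log2 fold change -3.18, SE 0.15, edgeR adjusted p = 4.6e-07), and was between 46.1 and 61.1 CPM in the later libraries. Kat2b, also called PCAF, went from 81.6 and 83.4 CPM in ES to 15.3 and 13.2 in HB (log2 fold change -2.54, SE 0.17, edgeR adjusted p = 2.5e-06) and rose to 35.4 and 28.4 in HE1. Brpf3, a scaffold of MYST complexes, fell from 108 ± 1.7 to 48.0 ± 0.18 CPM, and the nuclear receptor coactivator Ncoa1 fell from 31.2 ± 0.49 CPM in HB to 11.8 ± 2.9 in HE1.

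The deacetylases and corepressors, only some of which act against the histone acetylation placed by EP300 and CREBBP, were split, with 5 of 20 higher and 5 lower in HB against ES. Hdac7, known for its role in endothelium, rose from 17.5 ± 0.73 CPM in ES to 192 ± 3.4 in HB (log2 fold change 3.45, SE 0.29, edgeR adjusted p = 1.2e-05), was at 298 ± 15 in HE1 and at 64.1 ± 4.5 in HP (log2 fold change from HE1 to HP -2.22, SE 0.28, edgeR adjusted p = 0.000601). The summed level of 8 endothelial markers was 187 and 193 CPM in ES, 1311 and 1516 in HB, 4711 and 3263 in HE1 and 1002 and 1100 in HP. Without the gate gene Kdr, the other 7 summed to 185 and 191 CPM in ES, 315 and 251 in HB, 3504 and 2451 in HE1 and 677 and 734 in HP, and Pecam1 had a lower level in both HB libraries (40.9 and 32.4 CPM) than in either ES library. The part of cell composition in the Hdac7 levels was not tested. Sirt2 rose from 12.5 ± 0.97 to 33.1 ± 3.3 CPM and Hdac11 from 7.52 ± 0.05 to 17.9 ± 0.98 between ES and HB, Hdac11 fell to 5.29 ± 0.46 in HE1, and Hdac6, a mostly cytoplasmic deacetylase, fell from 116 ± 0.76 to 45.6 ± 5.2 from ES to HB.

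Proteins that bind the marks were also mixed. Of 16 readers of H3K4 methylation, 4 rose and 3 fell from ES to HB (median 0.19). Dido1 fell from 310 ± 6.3 to 119 ± 7.4 CPM, Phf2 rose from 20.3 ± 1.2 to 39.0 ± 1.3 CPM, and Ing2 rose from 17.3 ± 0.66 to 26.7 ± 0.57 CPM before falling to 16.4 ± 0.53 in HE1, where Ing5 was also lower than in HB (46.9 ± 8.6 against 77.4 ± 0.47 CPM). Of 23 readers of acetylated lysine, 7 rose and 3 fell from ES to HB (median 0.11). Taf1, the largest subunit of TFIID, fell from 349 ± 4.8 to 116 ± 1.6 CPM and Baz2a from 629 ± 0.84 to 279 ± 7.4 CPM, while Mllt3, a YEATS-domain protein that binds acetylated H3 and is known for maintaining blood stem cells, rose from 14.3 ± 0.56 to 36.1 ± 2.3 CPM and fell to 15.0 ± 1.7 in HE1. Cecr2 fell from 142 ± 7.5 CPM in HB to 41.0 ± 0.91 in HE1. 

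**Figure D4:**
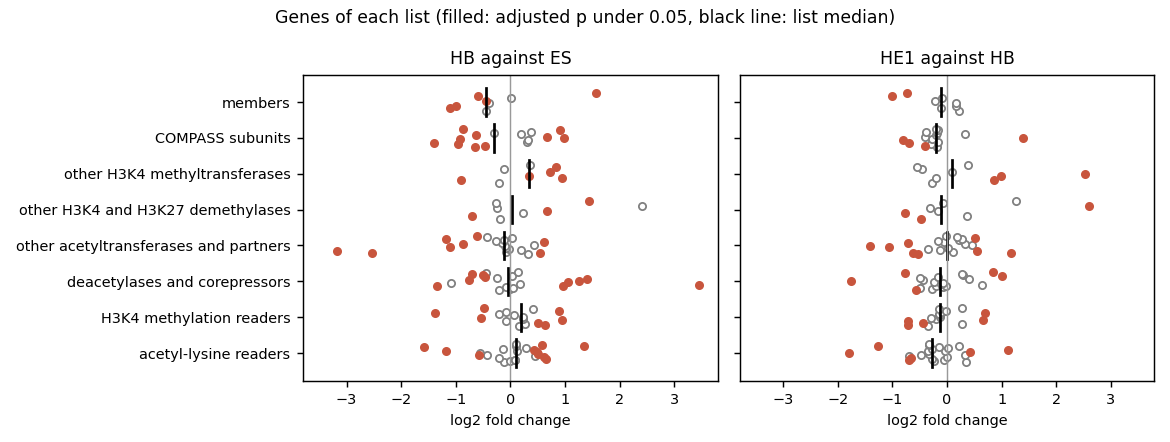
Log2 fold change (x axis) of every gene of the 8 lists in HB against ES (left) and HE1 against HB (right), with 1 point per gene, filled where the adjusted p was under 0.05, and a black line at the list median. The members have a median of -0.45 in HB against ES, and the other lists hold genes on both sides of 0.

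The genes whose log2 CPM over the 10 libraries followed each member most closely (Pearson r among 12234 genes, as a description, since the libraries of a stage are not independent points) were Zscan4a, Tasor and Kdm4c for Kmt2b (r of 0.995 each), Maneal, A2m and Actn3 for Kdm5b (0.996, 0.995 and 0.995), Ccnt1, Dnm1l and Alms1 for Ep300 (0.992, 0.989 and 0.986), Ppp1r3b, Ppme1 and Lins1 for Kdm6b (0.983, 0.975 and 0.970), Mysm1, Myo5a and Dclk2 for Kmt2a (0.973, 0.973 and 0.967) and Ndor1, Gtf2h1 and Ppil4 for Kmt2c (0.973, 0.972 and 0.968). Zscan4a belongs to a cluster of near-identical copies, so its counts are uncertain. Among the members themselves, Kmt2b and Ep300 had the highest r (0.893 over 10 libraries) and Kmt2c and Kdm6b the lowest (-0.879).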

How the data were processed

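Nuclear-enriched RNA of 5 stages (ES, HB, HE1, HE2 and HP, 2 libraries each) was sequenced after rRNA depletion with a directional kit. The authors trimmed reads (Trimmomatic), used HISAT2 (v2.2.1) for alignment to the mm10 build, and counted pairs on Ensembl exons with featureCounts in the reverse-stranded mode, in which a pair on several genes was counted on each. The deposited count tables hold 1 raw count per gene and library for 55487 genes. The deposited stage matrix holds 1 expression score per gene and stage, made by the authors, which equals 2 raised to the mean limma-voom log2 CPM of the stage to within 4.1e-08 on the log2 scale. It served to find the members and as an alternative scale.

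In R (v4.3.3), edgeR (v4.0.16) was run on the counts: filterByExpr on stage left 22596 genes, TMM scaled the library sizes, and all 10 libraries entered 1 quasi-likelihood fit on stage without covariates. P-values were adjusted by the Benjamini-Hochberg method over all tested genes. Limma (v3.58.1) and DESeq2 (v1.42.0) were alternatives, as were total counts, upper quartile scaling, a library size without the 20 genes of most counts, no filter, the matrix genes only, only the libraries compared, a replicate block and each library left out. Log2 CPM for the correlations used a prior count of 2, and paralog ratios 0.5 counts. Figures and lists were made in Python (v3.11.15). Symbols, lengths and positions came from the count tables and GENCODE, both on GRCm38, and promoter sequences from RefSeq.

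The members, the 7 lists of related genes and the markers were chosen with earlier results of these data known, as were the tests. Named genes were all members, the 4 genes of each list with the largest change among those that passed at a step and had 9 CPM or more in at least 1 stage, and the 3 genes most like each member that passed across the stages; Kdm5c and Kdm6a were named as relatives of members. Totals per library ranged from 24920434 to 58782055 counts. No 2 libraries were identical, and the spread between the 2 libraries of a stage exceeded counting error 3.17-fold in ES and up to 68.5-fold in HE2 (chi-square per degree of freedom over genes).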

Additional observations from a re-analysis of the deposited data

How the results depend on the processing

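Kmt2b, Kmt2c and Kdm6b in HB against ES, Kdm5b in HE1 against HB, and Kmt2b, Kdm5b and Kdm6b in HP against ES passed in the same direction under every alternative and with each library left out. Of 432 values of single genes under the 9 other alternatives, 404 kept direction and side of the threshold, 12 no longer passed, 7 newly passed and 9 changed sign; with libraries left out it was 419, 29, 2 and 30 of 480. The 5 genes lower in HB than in ES became 4 with total counts, upper quartile scaling, the 20 genes left out or the matrix genes only, 3 without a filter or with a replicate block, and 6 with limma-voom, DESeq2 or only the libraries compared, and the 2 lower at 2-fold became 1 with total counts, upper quartile scaling, the 20 genes of most counts left out of the library size, no filter, the matrix genes only or only the libraries compared. The 1 lower at 2-fold in HE1 against HB became 0 with total counts, the matrix genes only or only the libraries compared. The 0 higher in HP against HE1 became 1 (Kmt2c) with limma-voom, DESeq2, the 20 genes left out or no filter, and the 5 lower in HP than in ES became 3 with total counts. The cause was not tested. Differences between the replicates of a stage were mostly not shared with other stages (correlation of deviations over 10 stage pairs between -0.39 and 0.26, 1 of 10 over 0.1). This cannot tell whether libraries of the same replicate number share a culture, which the labels do not name. The replicate block took Kmt2a and Ep300 out of HB against ES (edgeR adjusted p = 0.0781 and 0.0559) and Ep300 out of HP against ES (edgeR adjusted p = 0.0564, 5 lower to 4), and changed no other call. With single libraries left out, 2 to 6 were lower in HB than in ES (1 to 2 at 2-fold), 1 to 2 lower in HE1 than in HB (0 to 1 at 2-fold), 0 to 1 higher in HP than in HE1 and 2 to 5 lower in HP than in ES, and the spans of stage means were 0.71 to 0.92 for Kmt2c to Kmt2d, 0.50 to 0.67 for Ep300 to Crebbp and 1.65 to 2.01 for Kdm6b to Kdm6a. Where 1 library of a stage was left, it was taken to vary like those of the other stages.

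Signs that changed were all of log2 differences that had not passed: Crebbp in HB against ES (-0.00085 with DESeq2), Kmt2b in HE2 against HE1 (0.0084 with the 20 genes left out and 0.00707 without a filter), Kdm6b in HE2 against HE1 (-0.026 with total counts, -0.0058 with upper quartile, -0.00195 with the matrix genes only) and Kmt2a in HP against HE2 (0.055, 0.028 and 0.024 in the same order). With libraries left out, the ranges were -0.050 to 0.11 (HB against ES), -0.37 to 0.10 (HE1 against HB), -0.11 to 0.34 (HE2 against HE1) and -0.26 to 0.19 (HP against HE1) for Crebbp, -0.057 to 0.33 (HE1 against HB) and -0.0044 to 0.34 (HP against HE2) for Kmt2c, -0.018 to 0.025 (HE2 against HE1) for Kmt2b, -0.032 to 0.25 (HE2 against HE1), -0.26 to 0.021 (HP against HE2) and -0.16 to 0.13 (HP against HE1) for Kdm6b, and in HP against HE2 -0.24 to 0.18 for Kmt2a, -0.028 to 0.16 for Ep300 and -0.032 to 0.10 for Kdm5b. Levels were 1.06 to 1.12 times as high in the deposited matrix and 0.958 to 1.05 times with total counts. With 2 libraries a stage, changes as small as those of Kmt2a, Kmt2d and Ep300 were at the limit of the test.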

Other observations

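In HP against HE1, a comparison in which none of the 8 members passed, 16 of the 111 related genes were higher and 4 were lower, where 11% of all tested genes were higher and 13.9% were lower (edgeR, adjusted p under 0.05). The medians of the 7 lists lay between 0.15 and 0.31 on the log2 scale. The median was -0.02 for all tested genes but 0.19 for the genes with a mean of 100 CPM or more, so abundant genes leaned the same way. The acetyltransferases and their partners had 5 of 20 higher and 0 lower, with Ncoa1 rising from 13.9 and 9.70 CPM in HE1 to 24.4 and 25.8 in HP (log2 fold change 1.09, SE 0.19, adjusted p = 0.00252) and Kat2b from 35.4 and 28.4 to 42.8 and 49.3 CPM (log2 fold change 0.53, SE 0.16, adjusted p = 0.0336). Setd1b rose from 104 and 94.1 CPM to 148 and 143 (log2 fold change 0.56, SE 0.15, adjusted p = 0.024), Kdm1b from 17.6 and 16.6 to 28.3 and 24.0 (0.61, SE 0.18, adjusted p = 0.0294) and Mllt3 from 13.8 and 16.2 to 25.1 and 26.3 (0.78, SE 0.16, adjusted p = 0.0064). In each of these genes both HP libraries were above both HE1 libraries. In the same comparison the summed level of 8 endothelial markers was 4711 and 3263 CPM in HE1 and 1002 and 1100 in HP (without the gate genes Kdr and Tek, 2966 and 2118 against 617 and 666), and that of 8 hematopoietic progenitor markers 440 and 308 CPM in HE1 and 1793 and 1571 in HP, and their part in these values was not tested.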
